A study of Mus musculus with 12 samples.

Results

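The genes described here are 10 neuropeptide precursors of the forebrain, Sst, Npy, Cck, Vip, Tac1, Penk, Pdyn, Cartpt, Nts and Adcyap1, out of 22667 genes in the tables. They were chosen by name, as a list of precursors, and all 10 were found and passed the filter on low counts. RNA sequencing measured messenger RNA of the cortex and of the hippocampus in E18.5 mouse embryos, shortly before birth. Control embryos were wild type. Knockout (KO) embryos lacked functional Srrm4, also called nSR100, a splicing regulator of neurons; exons 7 and 8 of a floxed EUCOMM allele were removed by crossing to mice with Cre under a cytomegalovirus promoter, so the deletion was not limited to neurons, and the line was kept on C57Bl/6N. Each tissue had 2 control and 2 KO libraries, which makes 4 groups. The labels do not say whether the libraries of a group came from separate embryos, or whether cortex and hippocampus came from the same ones, so the p-values rest on a spread between libraries that may be technical.

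Neuropeptides are made as long precursor proteins that enter the secretory pathway, are cut by prohormone convertases and carboxypeptidases, and are released from dense-core vesicles onto G protein-coupled receptors. In the cerebral cortex and hippocampus many of them mark classes of GABAergic interneuron: somatostatin (Sst) and neuropeptide Y (Npy) appear early, vasoactive intestinal peptide (Vip) mostly after birth, and cholecystokinin (Cck) is used by interneurons and by pyramidal cells. In the neighbouring striatum, the tachykinin precursor Tac1 (substance P) and the opioid precursors Penk (enkephalins) and Pdyn (dynorphins) mark the projection neurons.

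The 8 libraries held 58210499 to 140052443 counts, so that 3 counts were worth 0.0214 to 0.0515 CPM (a gene's count scaled to a fixed library total). Srrm4 stood at 25.2 and 24.2 RPKM (reads scaled by gene length and library total) in the cortex control libraries and at 8.12 and 6.97 RPKM in cortex KO. In hippocampus the controls had 26.0 and 27.9 RPKM and the KO libraries 5.68 and 6.16 RPKM, so the gene was low where the labels say KO. The first principal component (85.1% of the variance) separated the tissues. In control embryos all 8 hippocampal marker genes were higher in hippocampus and 7 of 10 cortical projection neuron markers were lower there (edgeR's quasi-likelihood test, Benjamini-Hochberg adjusted p under 0.05). Of all 16111 genes tested, 19.0% were higher and 14.9% lower in hippocampus. The cortical marker Fezf2 was higher in hippocampus. Hippocampus KO replicate 1 stood apart: the cortical marker Mef2c was at 24.0 RPKM there against 12.8 to 13.9 RPKM in the other 3 hippocampal libraries, and 4.40% of counts were mitochondrial against 3.14% to 3.44% elsewhere. Mef2c was picked after its values were seen. Summed CPM of Y-linked genes was 0.319 and 0.412 in replicate 2 of cortex KO and hippocampus KO and 25.4 to 148 in the other libraries. The part of these differences in the results was not tested. For several results of the precursors, the value without hippocampus KO replicate 1 is also given.

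The sequences before the transcription starts are shown for the 4 precursors whose regional differences are described most fully, because somatostatin is a textbook target of CREB, the factor activated by cyclic AMP, through the palindrome TGACGTCA. The 250 bases before the start were taken from RefSeq (GRCm38.p6) and are written 5′ to 3′ on the strand of the gene, with TGACGTCA and its 5-base cores TGACG and CGTCA in capitals:
Sst, chr16:23890845-23891094, minus strand: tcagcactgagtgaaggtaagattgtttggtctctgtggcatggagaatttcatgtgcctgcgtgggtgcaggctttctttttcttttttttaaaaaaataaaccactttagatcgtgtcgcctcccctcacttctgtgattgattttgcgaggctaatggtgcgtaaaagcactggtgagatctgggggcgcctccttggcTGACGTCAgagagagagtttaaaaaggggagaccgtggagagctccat
Npy, chr6:49822460-49822709, plus strand: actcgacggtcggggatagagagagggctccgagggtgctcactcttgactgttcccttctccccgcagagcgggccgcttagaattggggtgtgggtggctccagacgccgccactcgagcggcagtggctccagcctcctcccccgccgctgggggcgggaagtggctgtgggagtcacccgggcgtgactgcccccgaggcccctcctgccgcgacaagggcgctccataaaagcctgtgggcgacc
Cck, chr9:121495695-121495944, minus strand: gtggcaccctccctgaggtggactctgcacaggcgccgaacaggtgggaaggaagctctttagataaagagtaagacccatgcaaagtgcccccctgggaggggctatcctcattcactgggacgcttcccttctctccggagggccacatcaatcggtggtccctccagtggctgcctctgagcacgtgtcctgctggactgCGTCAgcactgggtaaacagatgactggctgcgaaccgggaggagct
Tac1, chr6:7554811-7555060, plus strand: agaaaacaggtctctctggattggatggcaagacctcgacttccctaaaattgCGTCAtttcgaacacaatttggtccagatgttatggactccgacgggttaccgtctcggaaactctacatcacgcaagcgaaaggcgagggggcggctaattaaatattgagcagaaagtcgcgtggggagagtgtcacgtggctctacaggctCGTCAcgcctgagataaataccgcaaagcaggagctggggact
The full palindrome begins 48 bases before the start of Sst. Cck holds a CGTCA core 47 bases before its start, Tac1 holds CGTCA cores at 197 and 43 bases, and the Npy stretch holds neither form. Of the 10 precursors, 9 had an entry in the RefSeq table, with 11 starts, since Pdyn and Adcyap1 have 2 each; Penk was not matched. The full palindrome was found in 2 of the 9 (Sst, and Cartpt at 112 bases), where 1.55% of all 32851 stretches of this length hold it. A core, including those inside the palindrome, was found in 7 of the 9, where 17.8% of all stretches hold it. Npy and Pdyn held none. Each motif was searched on both strands. A match describes the letters and not a bound site.

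In cortex the precursors spanned more than 3 orders of magnitude per length. Sst ranked highest, at 175 ± 1.82 RPKM (SD, n = 2) in control cortex, 267th of all genes. Npy came next at 131 ± 7.47, then Nts at 48.0 ± 2.40, Cck at 29.6 ± 1.46, Tac1 at 22.8 ± 3.51 and Penk at 16.6 ± 0.884 RPKM. Adcyap1 (5.21 ± 0.417 RPKM) and Pdyn (4.02 ± 0.0495 RPKM) lay lower. Cartpt (0.360 ± 0.0424 RPKM) and Vip (0.120 ± 0.0424 RPKM) lay near the bottom, the latter with 9 to 30 counts in a cortical library. No neighbours in this order overlapped between the control cortex libraries. In control hippocampus the order was another one: Cck led at 77.3 ± 11.3 RPKM, and Nts (43.8 ± 20.3), Sst (40.7 ± 0.820) and Npy (25.1 ± 0.0990 RPKM) followed, with the Nts libraries on either side of Sst and Npy below both. Penk was at 4.65 ± 0.0636, Adcyap1 at 3.08 ± 0.148, Pdyn at 1.17 ± 0.311, Tac1 at 0.665 ± 0.191, Cartpt at 0.285 ± 0.0495 and Vip at 0.0850 ± 0.00707 RPKM.

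**Figure D1:**
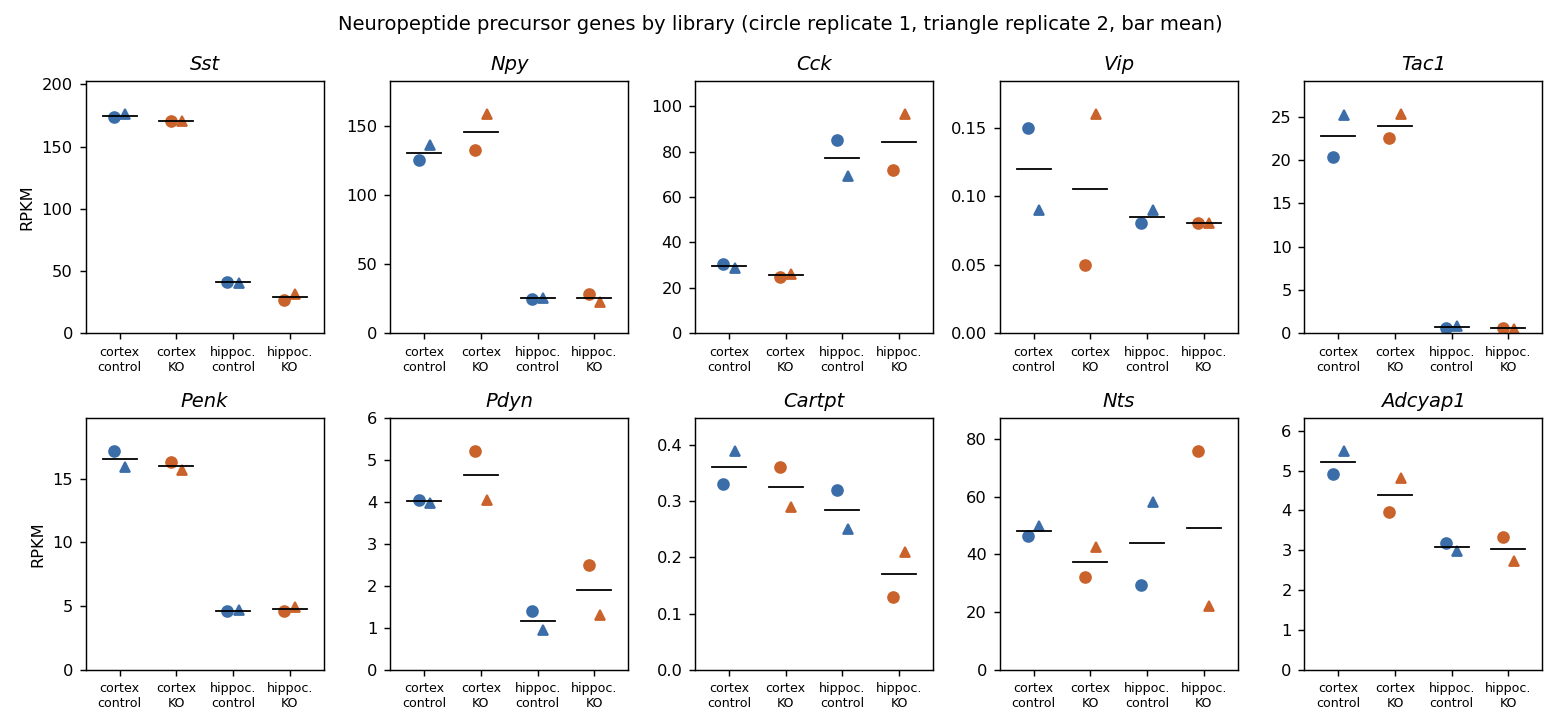
RPKM of the 10 precursors, each on its own linear axis from 0, in the 8 libraries; blue is control, orange KO, circles replicate 1, triangles replicate 2 and bars the group mean. Sst, Npy and Tac1 stand higher in all 4 cortical than in all 4 hippocampal libraries, Cck stands lower, and the hippocampal libraries of Nts spread from 22.1 to 75.9 RPKM.

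Between hippocampus and cortex of control embryos, 6 of the 10 precursors were lower in hippocampus and 1, Cck, was higher (edgeR's quasi-likelihood test, Benjamini-Hochberg adjusted p under 0.05). Of all 16111 genes tested, 33.9% passed, 14.9% lower and 19.0% higher in hippocampus. The median log2 fold change of the precursors was -1.33, against 0.01 over all genes tested. RNA of whole tissue was measured, so fewer cells of a type and less RNA per cell cannot be told apart. All 7 kept their direction and call under every alternative scaling, filter, tool and left-out library that was run. Control groups did not overlap for 9 of the 10 precursors, where 69.3% of all genes did not overlap.

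The interneuron peptides Sst and Npy were the most abundant precursors of the cortex and were lower in hippocampus. Sst, which marks dendrite-targeting interneurons, was at 174 and 176 RPKM in the control cortex libraries and at 41.3 and 40.1 RPKM in control hippocampus. The groups were far apart, with replicates within a few RPKM of each other. The log2 fold change was -2.18 (SE 0.09, edgeR adjusted p = 3.95e-06), which is 4.52-fold lower in hippocampus. Npy, a precursor shared by part of the Sst cells and by neurogliaform cells, was at 125 and 136 RPKM in control cortex and at 25.0 and 25.1 RPKM in control hippocampus, again without overlap. Its log2 fold change was -2.45 (SE 0.12, edgeR adjusted p = 6.36e-06), 5.47-fold lower. Vip, the peptide of disinhibitory interneurons, was barely detected in either tissue, with 7 to 30 counts per library, and its log2 fold change of -0.64 (SE 0.52) did not pass (edgeR adjusted p = 0.388).

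Other genes of GABAergic neurons and interneurons also differed between the tissues: of 24 tested of 25 listed, 16 were lower and 4 higher in control hippocampus, where 14.9% of all genes were lower and 19.0% higher. Gad2, a GABA-synthesising enzyme, had a log2 fold change of -1.18 (SE 0.10) and Sp9, a transcription factor of newborn interneurons, of -1.46 (SE 0.14). Cxcr4, the chemokine receptor of migrating interneurons and of Cajal-Retzius cells, was higher (log2 fold change 2.01, SE 0.08), as was Calb2, which both kinds of cell express (2.15, SE 0.12). Summed over the list, the level was 1538 to 1662 CPM in the cortical and 1205 to 1370 CPM in the hippocampal libraries. Its ratio between the tissues was smaller than that of Sst or Npy; that difference was not tested.

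Cck was the precursor with the opposite pattern. Its level was 30.6 and 28.5 RPKM in control cortex and 85.4 and 69.3 RPKM in control hippocampus, where it ranked highest of the 10. All hippocampal libraries, KO included, lay above all cortical ones. The log2 fold change was 1.32 (SE 0.16, edgeR adjusted p = 0.000529), 2.49-fold higher in hippocampus. Cckbr, its main brain receptor, had a log2 fold change of -0.75 (SE 0.25) in controls and did not pass (edgeR adjusted p = 0.0537). In KO embryos it passed (-1.25, SE 0.26, edgeR adjusted p = 0.00651), at 1.12 and 1.27 RPKM in cortex and 0.430 and 0.680 RPKM in hippocampus.

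Tac1, the substance P and neurokinin A precursor, showed the largest regional difference of the 10. Its level was 20.3 and 25.3 RPKM in control cortex against 0.530 and 0.800 RPKM in control hippocampus, or 2654 and 1698 counts against 63 and 54. No hippocampal library came near a cortical one. The log2 fold change was -5.22 (SE 0.20, edgeR adjusted p = 3.04e-06), 37.1-fold lower. Penk, the enkephalin precursor, was at 17.2 and 16.0 RPKM in cortex and 4.60 and 4.69 RPKM in hippocampus, a log2 fold change of -1.91 (SE 0.10, edgeR adjusted p = 9.44e-06). Pdyn, the dynorphin precursor, was at 4.05 and 3.98 RPKM in cortex and 1.39 and 0.950 RPKM in hippocampus, a log2 fold change of -1.83 (SE 0.31, edgeR adjusted p = 0.00228). Groups did not overlap for any of these genes.

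Markers of the striatum and ventral forebrain moved with Tac1, Penk and Pdyn. All 12 of 12 were lower in control hippocampus (edgeR adjusted p under 0.05), where 14.9% of all genes were lower. Their median log2 fold change was -3.65, against 0.01 over all genes tested. The dopamine receptors Drd1 (-2.82, SE 0.10) and Drd2 (-3.86, SE 0.13) were among them. The summed level of the 12 was 402 to 449 CPM in the cortical libraries and 34.7 to 41.9 CPM in the hippocampal ones, where the scarcest, Gpr6, still had at least 12 counts. Of 6 amygdala and lateral pallium markers, 5 were lower in control hippocampus, beside the same 14.9% of all genes. The 6 summed to 327 to 346 CPM in the hippocampal and 890 to 901 CPM in the cortical libraries. The part of these markers' cells in the cortical levels of Tac1, Penk and Pdyn was not tested. Nor was their part in those of Sst, Npy and the GABAergic genes above.

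The remaining precursors differed less between the tissues. Adcyap1, the precursor of the cyclic AMP-raising peptide PACAP, was at 4.91 and 5.50 RPKM in control cortex and at 3.18 and 2.97 RPKM in control hippocampus, with no overlap. Its log2 fold change was -0.83 (SE 0.14, edgeR adjusted p = 0.00247), 1.77-fold lower in hippocampus. Cartpt, the precursor of the CART peptides of feeding and reward circuits, had 14 to 36 counts in the control libraries, and its log2 fold change of -0.36 (SE 0.32) did not pass (edgeR adjusted p = 0.435). Nts, the neurotensin precursor, was at 46.3 and 49.7 RPKM in control cortex and at 29.5 and 58.1 RPKM in control hippocampus, so that the hippocampal libraries lay on either side of the cortical ones. Its log2 fold change of -0.22 (SE 0.49) did not pass (edgeR adjusted p = 0.781).

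**Figure D2:**
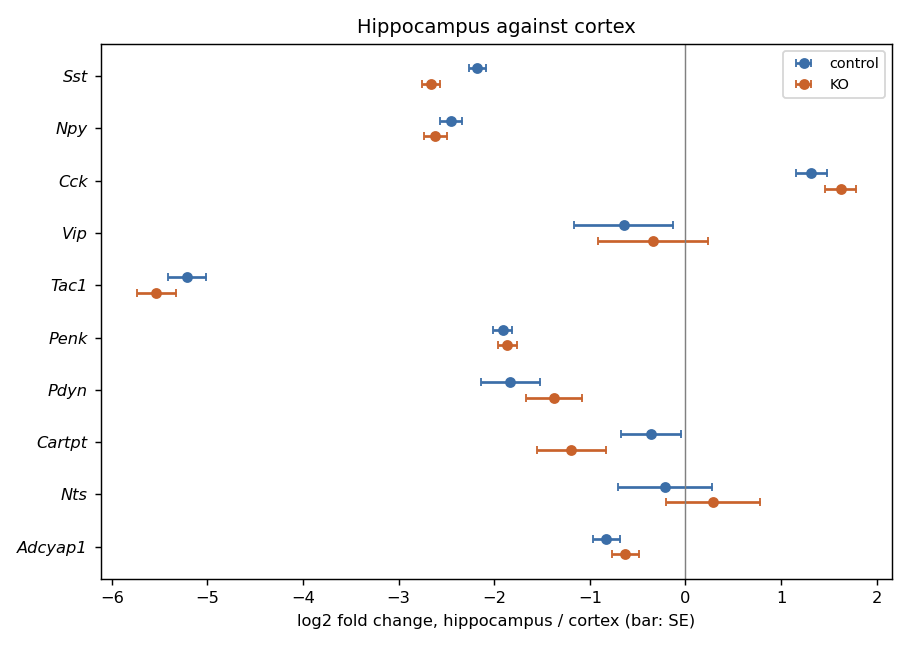
Log2 fold change of hippocampus against cortex for the 10 precursors, in controls (blue) and KO (orange), with bars for the standard error. Cck lies to the right of 0 in both genotypes, Tac1 lies farthest to the left (-5.22 and -5.54), and Nts has bars that cross 0.

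In KO embryos, 7 precursors were lower and 1 higher in hippocampus, where 40.0% of all genes passed, 18.8% lower and 21.2% higher. The median of the 10 was -1.28, against 0.03 over all genes tested. Sst had a log2 fold change of -2.66 (SE 0.09), Npy of -2.62 (SE 0.12), Cck of 1.62 (SE 0.17), Tac1 of -5.54 (SE 0.20), Penk of -1.86 (SE 0.10), Pdyn of -1.37 (SE 0.30) and Adcyap1 of -0.63 (SE 0.14), all with edgeR adjusted p of at most 0.00863. Cartpt also passed (log2 fold change -1.19, SE 0.36, edgeR adjusted p = 0.0296), with 42 and 15 counts in cortex KO and 13 and 10 in hippocampus KO. The Cartpt call did not hold without hippocampus KO replicate 1 (-0.78, edgeR adjusted p = 0.218), without cortex KO replicate 1 (0.201) or without cortex control replicate 2 (0.0501), nor with DESeq2 (adjusted p = 0.139). Without hippocampus KO replicate 1, the other 7 precursors passed, and Pdyn then had a log2 fold change of -1.92.

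Receptors for these peptides differed between the tissues in both directions. Of 22 receptor genes tested of 23 listed, 4 were higher and 9 lower in control hippocampus, where 19.0% of all genes were higher and 14.9% lower. The somatostatin receptor Sstr2 was higher in hippocampus, the tissue with less Sst (14.8 and 14.1 RPKM in cortex, 40.9 and 36.0 RPKM in hippocampus; log2 fold change 1.34, SE 0.11), while Sstr1 was lower (-1.26, SE 0.13). The neurokinin B receptor Tacr3 was higher (0.930 and 0.750 against 6.45 and 5.61 RPKM; log2 fold change 2.76, SE 0.23). The neurotensin receptor Ntsr1, a marker of corticothalamic neurons, was lower (17.0 and 15.3 against 2.40 and 2.32 RPKM; log2 fold change -2.85, SE 0.26). All 3 opioid receptors were lower in hippocampus, with log2 fold changes of -3.38 for Oprm1, -2.31 for Oprk1 and -1.66 for Oprd1; these 3 were singled out after their values were seen. Of the neuropeptide Y receptors, likewise singled out, Npy1r (-1.39) and Npy5r (-1.40) were lower, Npy2r (0.96) was higher, and Npy4r (-0.61) did not pass.

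Genes that process the precursors were compared next. Of 10 tested, 4 were higher and 1 lower in control hippocampus, where 19.0% of all genes were higher and 14.9% lower. Pam, which amidates peptide ends, had a log2 fold change of 0.65 (SE 0.08), and the convertase Pcsk2 of -0.59 (SE 0.09). Cpe, the carboxypeptidase that trims cut peptides and the gene of this list with the highest level, stood between 272 and 321 RPKM in all 8 libraries. Of 15 genes of the CREB pathway, 2 were higher and 4 lower, a share near that of all genes (33.9%); the adenylyl cyclase Adcy1 (-1.95, SE 0.14) and the protein kinase A subunit Prkar2b (-1.39, SE 0.07) were among the latter.

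The comparison of KO with control asks whether loss of the splicing regulator altered precursor messenger RNA. In cortex no precursor passed: 0 of 10 with edgeR, DESeq2 or limma, where 0.0186% of all genes passed with edgeR, and 0 of 10 had an unadjusted p under 0.05 (1.14% of all genes). Log2 fold changes ran from -0.46 (Vip, SE 0.51) to 0.21 (Pdyn, SE 0.29), with a median of -0.06. The most precise were Sst (170 and 171 RPKM in KO; -0.03, SE 0.09) and Penk (16.4 and 15.7 RPKM; -0.05, SE 0.10). Npy was at 132 and 159 RPKM in cortex KO (0.16, SE 0.11), Cck at 24.6 and 26.3 RPKM (-0.22, SE 0.16) and Tac1 at 22.5 and 25.3 RPKM (0.08, SE 0.15). Groups did not overlap for 5 of the 10 precursors in scaled CPM, 4 lower and 1 higher in KO, where 22.4% of all genes did not overlap, 11.4% lower and 11.0% higher.

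**Figure D3:**
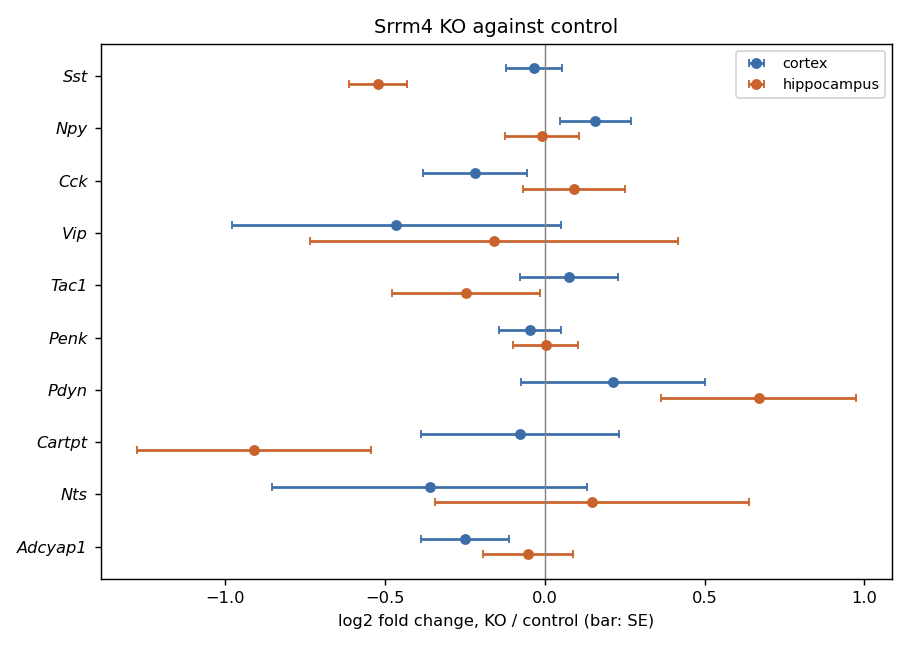
Log2 fold change of KO against control for the 10 precursors in cortex and in hippocampus, with bars for the standard error. No precursor passed the edgeR test in either tissue; Sst in hippocampus (-0.52) lies farthest from 0 in units of its standard error.

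In hippocampus no precursor passed with edgeR either (0 of 10, where 0.0248% of all genes passed), and 2 of 10, Sst and Cartpt, had an unadjusted p under 0.05 (3.81% of all genes, 2.25% lower in KO). With DESeq2, 1 of 10 passed, and with limma 0. Sst was at 41.3 and 40.1 RPKM in the hippocampal controls, against 26.8 and 31.2 RPKM in KO. Both KO libraries lay below both controls. The log2 fold change was -0.52 (SE 0.09), with an edgeR unadjusted p = 0.000398, which ranked 11th of 16111 genes, and an adjusted p = 0.583. DESeq2 gave -0.53 with an adjusted p = 0.00683. The difference was -0.69 between the libraries numbered 1 and -0.35 between those numbered 2. Without hippocampus KO replicate 1 it was -0.39 (edgeR adjusted p = 0.966), and over all left-out libraries it ran from -0.65 to -0.39 with adjusted p from 0.125 to 1.00.

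Apart from Cartpt, and Pdyn described below, the other precursors of the hippocampus varied within or near the spread of the replicates. Npy was at 25.0 and 25.1 RPKM in control and at 28.1 and 22.7 RPKM in KO (log2 fold change -0.01, SE 0.12), and the KO libraries lay on either side of the controls. The ratio of Sst to Npy RPKM was 1.65 and 1.60 in the hippocampal controls, against 0.956 and 1.38 in KO; in cortex it was 1.39 and 1.30 in control and 1.29 and 1.08 in KO. Cck (72.0 and 96.7 RPKM in KO; 0.09, SE 0.16), Penk (4.59 and 4.93 RPKM; 0.00, SE 0.10), Adcyap1 (3.32 and 2.74 RPKM; -0.05, SE 0.14) and Tac1 (0.600 and 0.490 RPKM; -0.25, SE 0.23) had log2 fold changes within about an SE of 0. Cartpt had 13 and 10 counts in KO against 32 and 14 in control (-0.91, SE 0.37, edgeR adjusted p = 0.992). Its log2 fold change was -0.48 without hippocampus KO replicate 1. Groups did not overlap for 3 of 10 precursors (Sst, Vip and Cartpt, each lower in KO), where 29.2% of all genes did not overlap, 15.9% lower and 13.3% higher.

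Among the hippocampal libraries, Nts and Pdyn were highest in the library that stood apart. Nts was at 75.9 RPKM in hippocampus KO replicate 1 and at 22.1 RPKM in replicate 2, outside the control values of 29.5 and 58.1 RPKM on both sides. The KO difference was therefore 1.30 between the libraries numbered 1 and -1.38 between those numbered 2, and the fitted value of 0.15 (SE 0.49) became -0.98 without hippocampus KO replicate 1. Pdyn was at 2.50 and 1.31 RPKM in KO against 1.39 and 0.950 RPKM in control (0.67, SE 0.31, edgeR adjusted p = 0.992) and had a log2 fold change of 0.13 without that library. Ntsr1 was also highest there among the hippocampal libraries, at 3.94 against 2.01 to 2.40 RPKM, beside the Mef2c values above. The part of tissue from outside the hippocampus in these values was not tested.

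Genes of GABAergic neurons stood beside Sst in hippocampus. None of 24 passed with edgeR or limma and 1 with DESeq2, but 20 of 24 had negative log2 fold changes (median -0.16, against -0.00 over all genes tested) and 8 had an unadjusted p under 0.05, where 3.81% of all genes did, 2.25% lower in KO. Those 8, chosen by that p, were Gad1, Slc32a1, Dlx1, Dlx2, Dlx5, Dlx6, Sp8 and Sp9, the GABA-synthesising enzyme, the vesicular GABA carrier and transcription factors of interneuron precursors. Dlx6 has an antisense partner, Dlx6os1, and whether the counting used strand is not stated, so their reads cannot be told apart. Gad1 was at 22.6 and 29.4 RPKM in hippocampus control and at 17.9 and 21.2 RPKM in KO (-0.44, SE 0.12), and Slc32a1 at 11.6 and 11.8 against 7.30 and 9.81 RPKM (-0.49, SE 0.17). For Dlx1, Dlx5 and Sp9 the lower control lay close to the higher KO library (35.2 against 34.7, 6.36 against 6.19 and 2.92 against 2.84 RPKM). Their higher control was at 45.8, 8.46 and 3.67 RPKM. Hippocampus KO replicate 1 was the lower KO library for all of the 8 but Dlx6. Fits without that library are not given for this list. The summed level of the list was 1361 to 1370 CPM in control and 1205 to 1306 CPM in KO. In cortex 21 of 24 had positive log2 fold changes (median 0.07). The levels of markers of other cell types are given beside these, none of them called by edgeR, DESeq2 or limma. All 6 oligodendrocyte lineage markers had negative log2 fold changes (2 with an unadjusted edgeR p under 0.05), at 123 to 144 CPM summed in control and 112 to 118 CPM in KO. All 10 microglial markers had positive ones (0 with such a p), at 113 to 126 CPM in control and 128 to 144 CPM in KO. Of 7 erythroid genes 6 had positive ones (median 0.71, 4 with such a p), at 44.7 to 54.3 CPM in control and 61.4 to 101 CPM in KO. Of 8 choroid plexus markers 7 had negative ones (3 with such a p), at 27.7 and 209 CPM in control and 44.9 to 47.2 CPM in KO. The part of these cells in the Sst and GABAergic values was not tested.

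**Figure D4:**
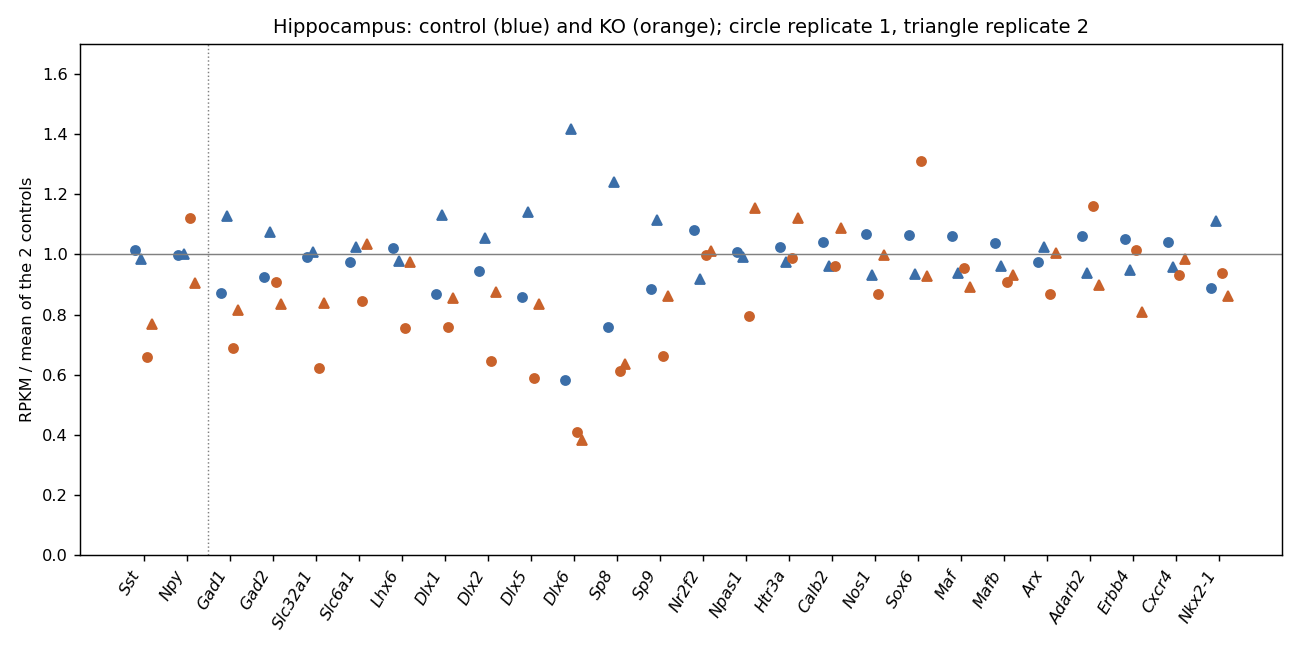
RPKM in each hippocampal library divided by the mean of the 2 controls, for Sst, Npy and the 24 listed GABAergic and interneuron genes; blue is control, orange KO, circles replicate 1 and triangles replicate 2. Both KO points lie below both control points for Sst and for the 8 genes named above, and on either side of them for Npy. The 8 were chosen by their p in these same libraries, so their separation is not separate evidence. Of all genes tested, 15.9% were lower in hippocampus KO without overlap in scaled CPM.

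Whether the KO difference itself changed with tissue was tested by the interaction. With edgeR 0 of 10 precursors and 0 of all genes (0.00%) passed, as with DESeq2 and limma for the precursors, and 1 of 10 had an unadjusted p under 0.05 (0.981% of all genes). This was Sst, with a difference of -0.49 (SE 0.13, edgeR unadjusted p = 0.00445, adjusted p = 1.00). Over both tissues together, 0 of 10 passed with edgeR, DESeq2 or limma (0.0621% of all genes with edgeR), and 1 of 10 had an unadjusted p under 0.05 (4.43% of all genes): Sst, with a log2 fold change of -0.27 (SE 0.10, edgeR adjusted p = 1.00). These comparisons share their libraries with those within each tissue. Without hippocampus KO replicate 1, the Sst value was -0.36 in the interaction and -0.16 over both tissues. Of the receptor genes (22) and processing genes (10), 0 passed in KO against control in either tissue with edgeR, DESeq2 or limma. With edgeR, 0.0186% of all genes passed in cortex and 0.0248% in hippocampus. At an unadjusted p under 0.05 edgeR counted 1 receptor in hippocampus and none in cortex, and no processing gene. Of all genes, 3.81% had such a p in hippocampus and 1.14% in cortex.

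The genes most like each precursor across the 8 libraries were found among 12657 genes by Pearson's r of log2(CPM + 1), which mostly reflects the split between tissues. For Sst these were Cry1, Gnal and Has3 (r = 0.999 to 0.998), for Npy Efnb2, Gucy1b1 and Nudt4 (0.998 to 0.997), and for Cck Jcad, Creb3l1 and Cxxc5 (0.998 to 0.994). For Tac1 they were Prkar2b, the dopamine receptor Drd1 and Pbx3 (0.999 to 0.998), and for Penk Klf5, Baiap3 and Tbr1 (0.999 to 0.998). The closest gene to Nts, Lsm6, reached 0.933, and the closest to Vip, Cys1, 0.840.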

How the data were processed

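RNA sequencing libraries were made with the TruSeq kit, per the labels' protocols. Bowtie and the build mm9 are named in the submitters' processing notes. Not given in the sources used here are its version, how reads were counted, the strand setting and the gene models. Each of 8 deposited tables holds whole-number read counts per Ensembl gene, made by the authors, and the authors' RPKM, which the counts and totals gave back over 10035 genes within ratios of 0.9954 to 1.0052 between tables. The text "ne" filled 1114 RPKM cells of each table (read as missing), and 4244 to 5054 blank count cells were read as 0. Runs 1 and 2 of a replicate share a table and counted as 1 library. Symbols for 20759 IDs came from GENCODE M21 (GRCm38), whose build differs from mm9.

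Counts were fitted over all 8 libraries with edgeR 4.0.16 (R 4.3.3; TMM scaling, quasi-likelihood test, minimum count 10 and total 15), and p-values were adjusted over 16111 genes at a threshold of 0.05. The fit was tested on simulated data. Alternatives were DESeq2 1.42.0, limma 3.58.1 on log2(RPKM + 1) and log2(RPKM + 0.1), RLE scaling, no filter, at least 1 RPKM in 2 libraries, each tissue alone, a replicate block and each library left out. The members and lists were chosen with earlier results of these data known. All 10 members are named; of other lists up to 4 genes per comparison that passed, by smallest p, and the gene with the highest level, others only where said; and the 3 genes most correlated with each member among those with a mean of at least 1 RPKM. With 2 libraries a group, precision is set by the spread between libraries; intervals for counting error are not given. Gene coordinates of the tables' build are not used here.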

Additional observations from a re-analysis of the deposited data

How the results depend on the processing

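Of 15 called differences of the precursors, 220 of 224 checks under the alternatives kept direction and call; the other 4 are the Cartpt values given in the report. Of 45 uncalled ones, 1 passed under an alternative (Sst in hippocampus KO with DESeq2). The count of all genes called in cortex KO was 3 with edgeR and 11 with DESeq2. In hippocampus KO it was 4, and 18 with DESeq2, 2 with limma on log2(RPKM + 1), 2 on genes with at least 1 RPKM, 2 on the tissue's own 4 libraries, and 2 to 7 with each library left out. Over both tissues it was 10, 37 with DESeq2, 22 with the replicate block and 5 to 9 with each library left out. Between tissues it was 5464 in controls (3189 to 5972 with each library left out) and 6442 in KO (4112 to 6350). Calls between tissues in KO were 3415 higher and 3027 lower with edgeR, and 4214 higher and 2160 lower with limma on log2(RPKM + 1). The cause of these changes was not tested.

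The labels name no animal or day shared by libraries of the same replicate number. The values did differ by that number: the second principal component was 5.27 to 9.94 in libraries numbered 1 and -10.9 to -5.43 in those numbered 2. Over 11319 genes, differences between libraries 1 and 2 correlated at 0.649 between control and KO in cortex and 0.2 in hippocampus. Between the tissues they correlated at 0.777 in controls and 0.43 in KO. Cortex KO with hippocampus control gave 0.668, and cortex control with hippocampus KO 0.045. The cause was not tested, and the main fit did not include replicate number. With the replicate block, Sst in hippocampus KO was -0.53 (edgeR adjusted p = 0.225), and no precursor's call changed. Small fitted values changed sign: in hippocampus KO, Penk was -0.0035 with RLE and -0.0063 with DESeq2, Npy was 0.010 with limma on both scales, and Nts was -0.0087 and -0.013 with limma at pseudocounts of 1 and 0.1; over both tissues Tac1 was 0.016 with the block. Ranges of log2 fold changes whose sign turned when a library was left out follow, none of them called. In cortex KO against control, they were Cartpt -0.31 to 0.070, Pdyn -0.016 to 0.41, Penk -0.12 to 0.051, Tac1 -0.037 to 0.22, Vip -1.23 to 0.31. In hippocampus KO against control, they were Adcyap1 -0.18 to 0.061, Cck -0.15 to 0.31, Npy -0.15 to 0.12, Nts -0.98 to 0.76, Penk -0.064 to 0.081, Tac1 -0.53 to 0.021. Over both tissues, they were Cck -0.19 to 0.013, Nts -0.59 to 0.11, Penk -0.050 to 0.028, Tac1 -0.12 to 0.068, Vip -0.63 to 0.060. In the interaction, they were Nts -0.62 to 1.12, Pdyn -0.086 to 0.80, Penk -0.040 to 0.13, Vip -0.46 to 1.07. Between tissues in controls, they were Nts -0.75 to 0.18. Between tissues in KO, they were Nts -0.84 to 0.90, Vip -1.12 to 0.42. Vip and Cartpt rest on few counts, so that only large differences could be seen.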

Other observations

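Other neuropeptide precursors were compared between cortex and hippocampus in the same way: of 27 tested of 42 listed, 6 were higher and 4 lower in control hippocampus (edgeR, adjusted p under 0.05), a share near that of all genes, of which 33.9% passed, 19.0% higher and 14.9% lower. Tac2, the neurokinin B precursor and paralogue of Tac1, ran the opposite way to Tac1. It was at 1.06 and 1.51 RPKM in control cortex and at 32.2 and 34.8 RPKM in control hippocampus, with no overlap. The log2 fold change was 4.67 (SE 0.21, edgeR adjusted p = 4.86e-06), in the tissue where its receptor Tacr3 was also higher. Grp, the gastrin-releasing peptide precursor, was at 8.34 and 8.44 RPKM in cortex and at 31.4 and 32.4 RPKM in hippocampus (1.85, SE 0.12). Pnoc, the nociceptin precursor, was at 3.43 and 3.63 RPKM in cortex and at 10.2 and 10.3 RPKM in hippocampus (1.47, SE 0.17), in contrast to the opioid precursors Penk and Pdyn. Trh, the thyrotropin-releasing hormone precursor, was lower in hippocampus (1.68 and 1.17 against 0.190 and 0.150 RPKM; -3.13, SE 0.30). In KO against control 0 of 27 passed in either tissue with edgeR, DESeq2 or limma. With edgeR, 0.0186% of all genes passed in cortex and 0.0248% in hippocampus. At an unadjusted p under 0.05 edgeR counted 1 of the 27 in hippocampus and 0 in cortex. Of all genes, 3.81% had such a p in hippocampus and 1.14% in cortex.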
